A study of Mus musculus with 6 samples.

Results

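The genes described here are 8 glutamate transporter genes, 5 of the plasma membrane (Slc1a1, Slc1a2, Slc1a3, Slc1a4 and Slc1a6) and 3 of synaptic vesicles (Slc17a6, Slc17a7 and Slc17a8). They were chosen by name, and every probeset annotated to 1 of them alone was taken, which gave 21 of the 45037 probesets on the array that are not controls, and 7 of the 8 genes. A probeset is a group of short probes against 1 stretch of transcript. Slc17a8, which encodes VGLUT3, had no probeset annotated to it alone here, and 1 further probeset annotated to Slc1a2 together with another gene was not used.

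Glutamate is the main excitatory transmitter of the brain. It is packed into synaptic vesicles by the vesicular transporters, and after release it is cleared from the extracellular space by the sodium-dependent transporters of the SLC1 family. Most of that uptake is into astrocytes, through EAAT2 (Slc1a2, also called GLT-1) and EAAT1 (Slc1a3, also called GLAST), where glutamine synthetase turns it into glutamine that is returned to neurons. Neurons carry EAAT3 (Slc1a1), and cerebellar Purkinje cells carry EAAT4 (Slc1a6).

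Hippocampal RNA was compared between 3 Glud1 Tg and 3 wt mice, all male, 9 months old and of C57BL/6 background, with 1 array for each mouse. The Tg mice carry a Glud1 transgene under the promoter of the neuron-specific enolase gene (Nse), so that glutamate dehydrogenase 1, an enzyme that interconverts glutamate and 2-oxoglutarate, is over-expressed in neurons and not by design in glia. The question put to these genes was whether the transcripts of the proteins that release and clear glutamate differed in hippocampi exposed to a lifelong excess of neuronal glutamate dehydrogenase. Whole dissected hippocampus was used, so fewer cells of a type and less RNA per cell cannot be told apart, and the 3 arrays in each group limit the precision of every value.

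All 6 arrays had been scaled by the authors to a common trimmed mean. The kept probesets had a median signal of 309.65 to 318.9 on the Tg arrays and 297.3 to 305.35 on the wt arrays, and these ranges did not overlap. The ratio of the 3′ to the 5′ probeset of beta-actin, a sign of RNA integrity, was 1.64 to 1.69 on the Tg arrays and 1.70 to 1.95 on the wt arrays, without overlap, and the same ratio of Gapdh was 0.781 to 0.800 on the Tg arrays and 0.752 to 0.908 on the wt arrays, with overlap. The probeset of Glud1 itself gave 5116, 5596 and 5561 in Tg mice, against 6383, 5647 and 5998 in wt mice. All 3 Tg signals were below the wt signals (log2 fold change -0.15, SE 0.0815, limma adjusted p = 0.595). Whether the probes lie within the part of the transcript that the transgene carries is not known here, so this probeset does not check the labels. Markers of dentate granule cells summed to 22902 to 25493 in Tg and 18270 to 22710 in wt hippocampi, those of CA field pyramidal cells to 17183 to 20279 in Tg and 16458 to 17454 in wt hippocampi.

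No transporter probeset passed an adjusted p of 0.05. Of the 21 probesets, 20 passed the filter on low signal. Among them 7 were higher and 13 lower in Tg than in wt hippocampi, with a median log2 fold change of -0.06, whereas 53.2% of all 31076 kept probesets were higher and their median was 0.02. The median of all kept probesets was -0.05 when each array was centred on its median and -0.01 after quantile normalization. Adjusted p-values of the 20 ran between 0.245 and 0.998, and the smallest of all kept probesets was 0.143. The count of transporter probesets called was 0 in limma, where 0% of all kept probesets were called, and 0 in Cyber-T, a test that borrows the variance of probesets of like signal and called 0.209% of them.

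At an unadjusted limma p under 0.05 there were 3 transporter probesets higher and 2 lower in Tg hippocampi, against 5.91% of all kept probesets higher and 3.78% lower. Every Tg array lay above every wt array for 2 transporter probesets and below for 1, where 8.58% of all kept probesets lay above and 6.67% below. For the other 17 the groups overlapped. The study's limits were a 1.3-fold difference, a Cyber-T p of 0.05 on RMA values and a limit on the false discovery rate. At that fold and an unadjusted limma p of 0.05, without the last limit, 2 were higher and 1 was lower. Of all kept probesets 4.89% were higher and 2.02% lower at these 2 limits. Each of these 6 counts lay within 2 probesets of what the share of the whole array gives over 20 probesets, and the 3 higher at the unadjusted p belong to only 2 genes, Slc1a1 and Slc1a2. The plasma membrane genes held 17 of the kept probesets, 7 higher and 10 lower with a median of -0.03. The vesicular genes held 3, all lower, with a median of -0.53. These 3 belong to only 2 genes, and the median is the value of Slc17a6 1418610_at, where the groups overlapped. The probeset of Slc17a7 had -0.05.

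**Figure D1:**
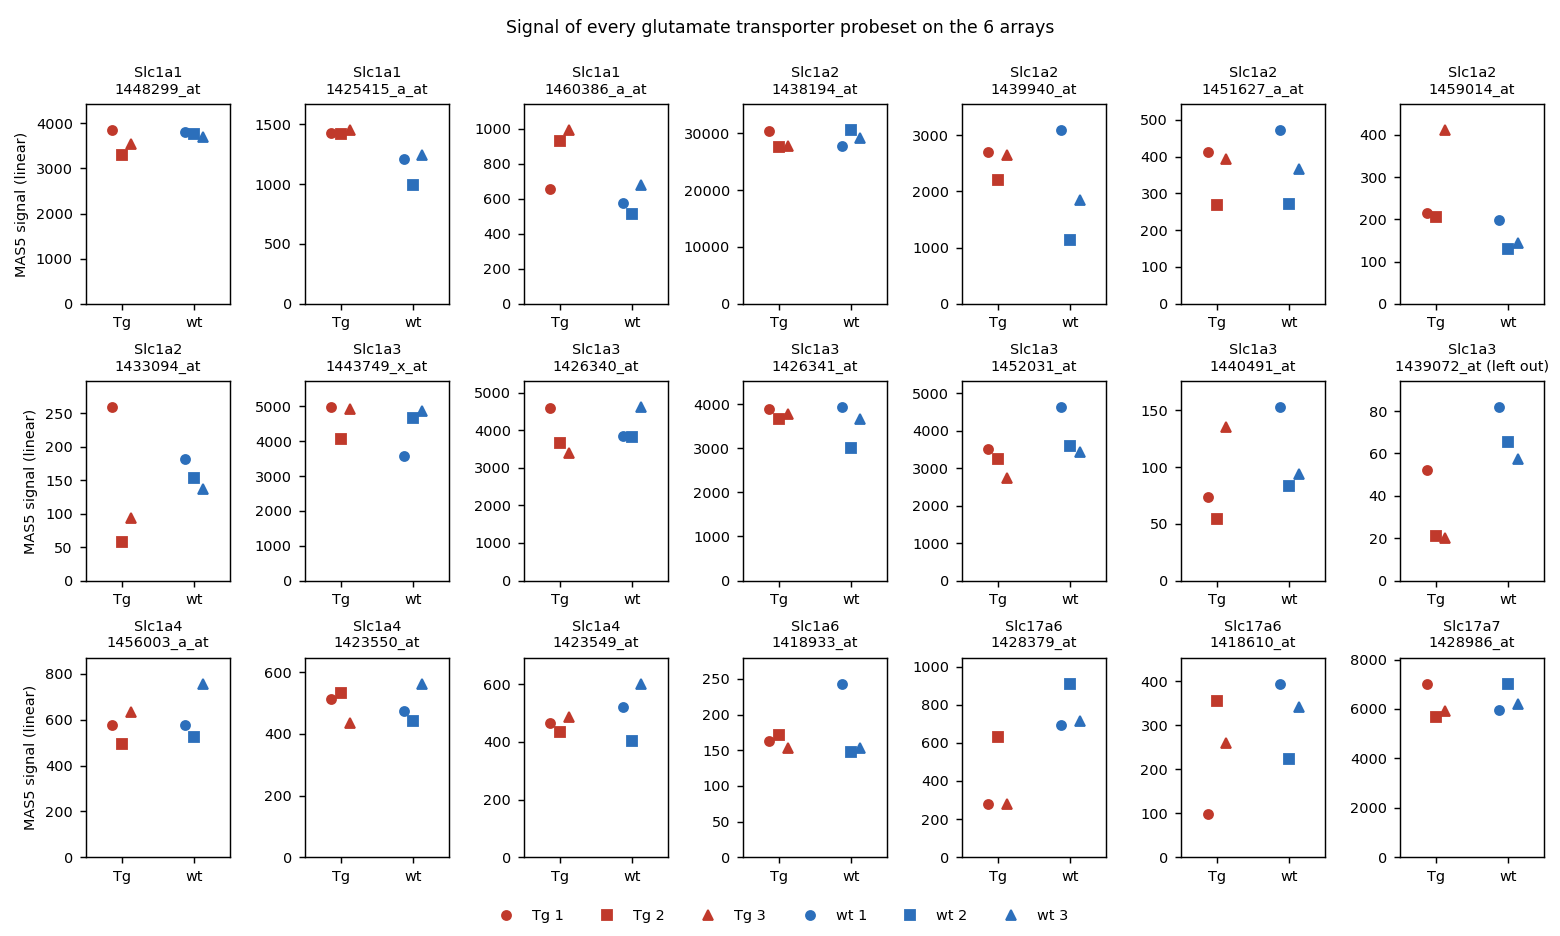
Signal of each gene's probesets on every array, with Tg arrays on the left and wt arrays on the right and a marker shape for each replicate number. The groups overlapped at the brightest probeset of every gene but Slc17a6, where the Tg arrays lay between 277 and 632 and the wt arrays between 696 and 908.

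Slc1a2 encodes the transporter that carries most of the glutamate uptake of the forebrain and is made chiefly by astrocytes. Its brightest probeset, 1438194_at, gave 30448, 27637 and 27776 in Tg mice, against 27811, 30498.5 and 29243 in wt mice. The groups overlapped, and the means of 28621 ± 1584 in Tg and 29184 ± 1345 in wt hippocampi (SD, n = 3 each) differed by a log2 fold change of -0.03 with a 95% interval of -0.18 to 0.12 (limma adjusted p = 0.920). After quantile normalization the log2 fold change was 0.03.

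The dimmer Slc1a2 probesets did not move together. Probeset 1459014_at gave 215.5, 207 and 411 in Tg mice, against 198, 130.2 and 145 in wt mice. Every Tg array was above every wt array, with Tg 3 far above the others, and the log2 fold change was 0.71 (95% interval 0.08 to 1.34, limma adjusted p = 0.460, Cyber-T adjusted p = 0.341). It was 0.41 without Tg 3. The study placed this probeset, under a RIKEN cDNA name, on a list drawn from these same arrays, so its direction there is not independent evidence. The paper's text also gives Slc1a2, by that name, as up-regulated in Tg mice, from RMA values of these arrays. At the brightest Slc1a2 probeset here the groups overlapped.

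Probeset 1439940_at of Slc1a2 gave 2703, 2193 and 2644 in Tg mice, against 3084, 1142 and 1849 in wt mice. The wt arrays alone spanned the whole Tg range, and the log2 fold change of 0.42 (95% interval -0.14 to 0.98, limma adjusted p = 0.634) was 0.07 without wt 2 and 0.78 without wt 1. Probeset 1451627_a_at had a log2 fold change of -0.03 (95% interval -0.53 to 0.47) and probeset 1433094_at one of -0.40 (95% interval -1.31 to 0.51). At 1433094_at the Tg arrays spread widely, with 259, 57.7 and 93.4 in Tg mice, against 181, 153 and 137 in wt mice.

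Slc1a3 encodes the other astrocytic transporter, which is also carried by radial glia and by the Bergmann glia of the cerebellum. The groups overlapped at all 4 of its bright probesets. Probeset 1443749_x_at had a log2 fold change of 0.10 (95% interval -0.17 to 0.36), 1426340_at one of -0.09 (95% interval -0.34 to 0.17) and 1426341_at one of 0.10 (95% interval -0.12 to 0.33). The name ending of the first marks probes that may also match other transcripts. The remaining bright probeset, 1452031_at, gave 3500.4, 3242 and 2741 in Tg mice, against 4629.5, 3596 and 3429 in wt mice. Its log2 fold change was -0.29 (95% interval -0.56 to -0.02, limma adjusted p = 0.485), and Tg 1 was above wt 3. It was -0.16 without wt 1 and -0.19 without Tg 3.

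The dim Slc1a3 probeset 1440491_at had a log2 fold change of -0.31 (95% interval -1.17 to 0.54), which was -0.63 without Tg 3, -0.066 without Tg 2 and -0.082 without wt 1. Probeset 1439072_at did not pass the filter and was not tested. It gave 52.1, 21 and 20 in Tg mice, against 81.8, 65.5 and 57.4 in wt mice, so that the groups did not overlap. Its mean signals were 31 in Tg and 68.2 in wt hippocampi, beside a lowest mean signal kept of 48.75.

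Beside these 2 astrocytic genes, 13 of 14 astrocyte markers were lower and 1 higher in Tg hippocampi, with a median log2 fold change of -0.17, while 44.0% of all 13854 genes were higher at their brightest kept probeset and their median was -0.03. Their summed signal was 54804 to 58846 in Tg and 62153 to 64427 in wt hippocampi. None was called by limma or by Cyber-T. At an unadjusted p under 0.05, 4 were lower (3.78% of all kept probesets). For 5, every Tg array was below every wt array (6.67% of all kept probesets). In every list these shares count all kept probesets, whereas list genes are taken at their brightest one. Shares over genes at their brightest probeset were not computed. Aldoc, a glycolytic enzyme of astrocytes, gave 24314, 22442 and 24687 in Tg mice, against 28127, 25903 and 25613 in wt mice (log2 fold change -0.16, limma adjusted p = 0.513). Ntsr2, a neurotensin receptor of astrocytes, had a log2 fold change of -0.14 (limma adjusted p = 0.630) with overlapping groups. The number of markers higher was 4 without Tg 3, 2 without Tg 2 or without wt 1, and 0 without Tg 1 or without wt 2. The part of astrocyte content in the Slc1a2 and Slc1a3 values was not tested.

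Slc1a1 encodes the neuronal transporter EAAT3, which takes up glutamate and cysteine at the cell body and dendrites. Its brightest probeset, 1448299_at, gave 3845, 3297 and 3544 in Tg mice, against 3818, 3770.5 and 3694 in wt mice. The groups overlapped, with a log2 fold change of -0.08 (95% interval -0.27 to 0.11, limma adjusted p = 0.795), which was -0.14 without Tg 1 and -0.027 without Tg 2.

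Its other probesets, which by their name ending recognise several transcripts of the gene, lay the other way. Probeset 1425415_a_at gave 1432, 1421 and 1450.4 in Tg mice, against 1213, 997 and 1241 in wt mice. Every Tg array was above every wt array, and the means of 1434 ± 15.0 in Tg and 1150.5 ± 133 in wt hippocampi (SD, n = 3 each) gave a log2 fold change of 0.32 (95% interval 0.07 to 0.57, limma adjusted p = 0.391). Probeset 1460386_a_at gave 656.7, 930.2 and 991 in Tg mice, against 576, 510.5 and 678.5 in wt mice. Tg 1 lay below wt 3, so the groups overlapped, and the log2 fold change was 0.52 (95% interval 0.15 to 0.90, limma adjusted p = 0.349).

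**Figure D2:**
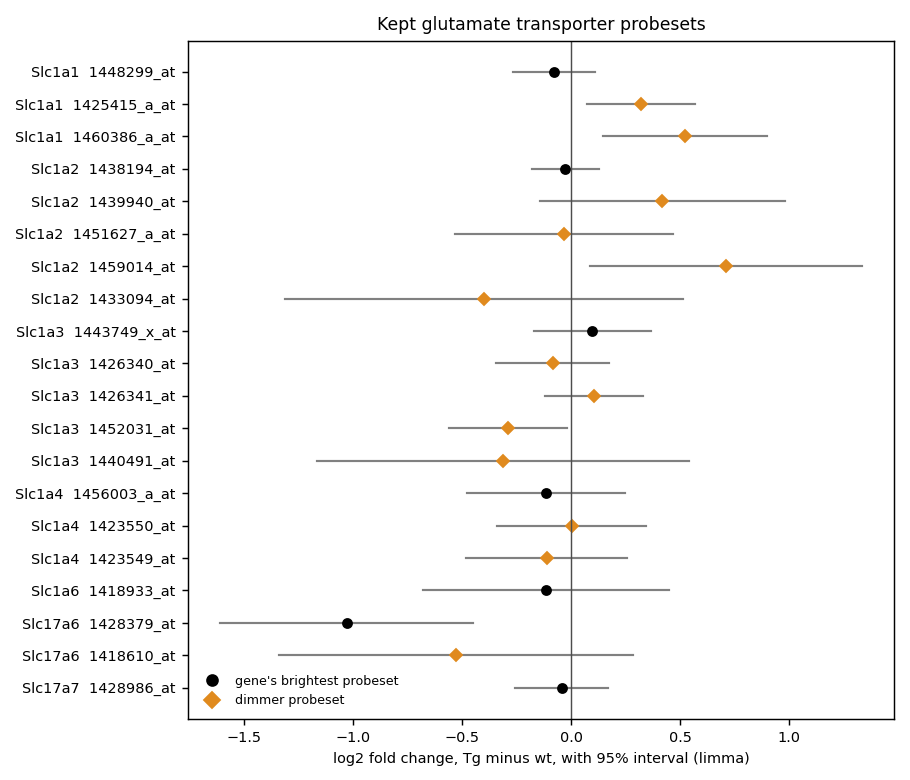
Log2 fold change, Tg over wt, of each kept transporter probeset, with its 95% interval as a bar, a black circle for the gene's brightest probeset and an orange diamond for the dimmer ones. The intervals of 5 probesets leave out 0, from -1.03 for Slc17a6 to 0.71 for Slc1a2, and no adjusted p was under 0.05.

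For each gene with more than 1 kept probeset, the difference between the brightest and the dimmer ones was taken on each array, as the log2 level of the brightest minus the mean log2 level of the dimmer kept ones. A shift in array scale cancels in this difference. For Slc1a1 it was 1.97, 1.51 and 1.55 in Tg mice, against 2.17, 2.37 and 1.99 in wt mice. Every Tg array was below every wt array, and the means of 1.68 ± 0.254 in Tg and 2.18 ± 0.192 in wt hippocampi differed by -0.50. The 2-sided exact permutation test gave p = 0.1, the smallest that 3 against 3 arrays allow. After Benjamini-Hochberg adjustment over the 5 genes compared it was 0.5. With the dimmest kept probeset alone in place of the mean, the difference was -0.60 (exact permutation p = 0.2). The probesets of Slc1a1 are those described above, so this difference restates their opposite directions and adds no independent support.

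The other 4 genes with more than 1 kept probeset gave overlapping groups. The difference between Tg and wt means was -0.20 for Slc1a2 (exact permutation p = 0.7), 0.24 for Slc1a3 (exact permutation p = 0.6), -0.06 for Slc1a4 (exact permutation p = 0.7) and -0.50 for Slc17a6 (exact permutation p = 0.5), each with an adjusted p of 0.7. For Slc17a6 the per-array values were 1.37, 0.81 and 0.09 in Tg mice, against 0.80, 1.95 and 1.03 in wt mice, so its size equal to that of Slc1a1 came with a far wider spread. Leaving out 1 array moved the difference to between -0.44 (without wt 1) and -0.00052 (without wt 2) for Slc1a2, between 0.0039 (without wt 1) and 0.39 (without wt 2) for Slc1a3, and between -0.81 (without Tg 1) and -0.16 (without wt 2) for Slc17a6. Which transcripts the dimmer probesets of Slc1a1 read could not be looked up here.

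**Figure D3:**
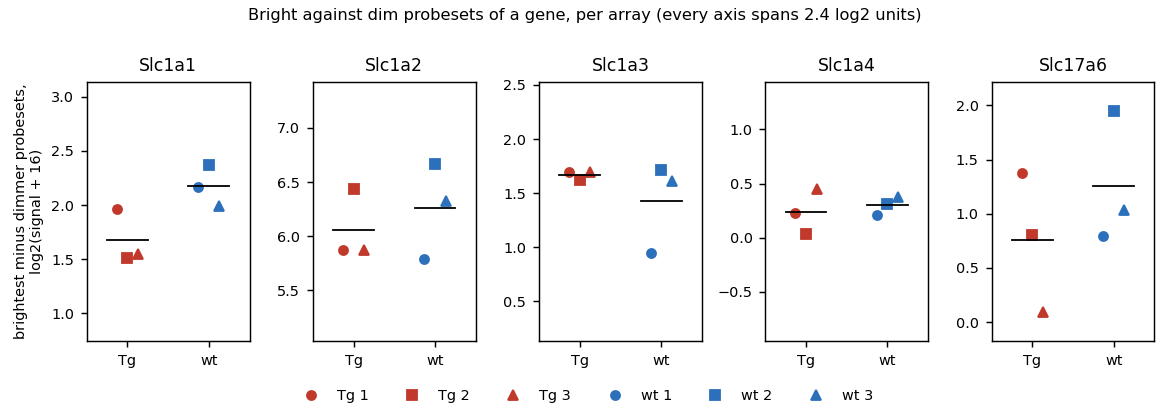
Brightest minus dimmer probesets, in log2 units, for the 5 genes with more than 1 kept probeset, with Tg arrays on the left, wt arrays on the right and group means as black lines; every axis spans 2.4 log2 units. Only for Slc1a1 did the groups not overlap, at 1.51 to 1.97 in Tg and 1.99 to 2.37 in wt hippocampi.

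Slc1a4 encodes ASCT1, an exchanger of alanine, serine and cysteine that belongs to the same family. Its 3 probesets overlapped between the groups. The brightest, 1456003_a_at, gave 577, 493 and 633 in Tg mice, against 579, 527 and 756 in wt mice, with a log2 fold change of -0.12 (95% interval -0.48 to 0.25), and the others gave 0.002 for 1423550_at (-0.06 with arrays centred) and -0.11 for 1423549_at (limma adjusted p between 0.854 and 0.998 for the 3). Slc1a6 had 1 probeset, 1418933_at, with 162.5, 171 and 153 in Tg mice, against 243, 148 and 153 in wt mice. The signal of wt 1 was far above the others, and the log2 fold change of -0.12 (95% interval -0.68 to 0.45) was 0.10 without wt 1. Purkinje cells, the main site of Slc1a6, are cerebellar, whereas hippocampus was dissected here. Genes listed as their markers summed to 1381 to 1942 in Tg and 1835 to 2040 in wt hippocampi, which is not a measure of Purkinje cells. Of these markers 0 of 5 were higher, with a median of -0.15. Without Tg 3 the number higher was 3, without wt 3 it was 2 and without wt 2 it was 1. The brightest of them, Pcp4l1 and Icmt, had log2 fold changes of -0.19 and -0.15. The defining marker Pcp2 gave 99.8, 52.5 and 22.8 in Tg mice, against 14.8, 86.7 and 94.9 in wt mice. These signals were near the lowest mean signal kept of 48.75. Car8, named after its values were seen, gave 152.7, 88.2 and 167 in Tg mice, against 277, 231.7 and 269.3 in wt mice (log2 fold change -0.90, limma adjusted p = 0.290). It was the 1 marker lower at an unadjusted limma p under 0.05 (3.78% of all kept probesets). Only for Car8 was every Tg array below every wt array (6.67%).

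Slc17a6 encodes VGLUT2, the vesicular transporter of most thalamic and other subcortical excitatory neurons, which also occurs in parts of the retrohippocampal cortex. Its brightest probeset, 1428379_at, gave 280, 632 and 277 in Tg mice, against 696, 908 and 714 in wt mice. Every Tg array was below every wt array, but Tg 2 lay much nearer to the wt arrays than Tg 1 and Tg 3 did. The means of 396 ± 204 in Tg and 773 ± 118 in wt hippocampi (SD, n = 3 each) gave a log2 fold change of -1.03 (SE 0.266, 95% interval -1.61 to -0.45), with an adjusted p of 0.245 in limma and 0.0697 in Cyber-T. Without Tg 2, the Tg array nearest to wt, it was -1.41 with a limma adjusted p of 0.0395. Leaving out any other array gave between -0.84 (without Tg 3, limma adjusted p = 0.654) and -1.10 (without wt 1, limma adjusted p = 0.219), with no call. This probeset is on a list the study drew from these same arrays, so its direction there is not independent evidence.

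The other Slc17a6 probeset, 1418610_at, gave 98.2, 354 and 259 in Tg mice, against 393, 223 and 341 in wt mice. The groups overlapped, with a log2 fold change of -0.53 (95% interval -1.34 to 0.28, limma adjusted p = 0.675), and without Tg 1 it was -0.04. The mean log level of both Slc17a6 probesets gave -0.78 (SE 0.284, limma adjusted p = 0.488).

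Markers of the regions where Slc17a6 is made were read beside it. Of 12 markers of the subiculum and retrohippocampal cortex, 10 were lower and 2 higher, with a median of -0.25 and a summed signal of 8523 to 9701 in Tg and 10464 to 11890 in wt hippocampi. Of 10 thalamus markers, 7 were higher and 3 lower, with a median of 0.06 (-0.01 with arrays centred) and summed signals of 4069 to 6011 in Tg and 4678 to 6414 in wt hippocampi. None of either list was called by limma, and Cyber-T called 2 of the first, Tshz2 and Satb1, against 0.209% of all kept probesets. The number of thalamus markers higher was 4 without Tg 3 or without wt 3. Prkcd, a kinase that marks much of the dorsal thalamus, gave 535, 697 and 839 in Tg mice, against 894, 619 and 546 in wt mice, a range shared by both groups.

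The markers set out singly here, and Prkcd, were chosen after their values were seen. Tshz2, a transcription factor of retrosplenial and subicular neurons, gave 394, 495 and 551 in Tg mice, against 1126, 947 and 1044 in wt mice (log2 fold change -1.10, limma adjusted p = 0.143). Nts, which encodes neurotensin, gave 194, 285 and 120.5 in Tg mice, against 478, 440 and 385 in wt mice (log2 fold change -1.13). Cbln1, which encodes a synapse organiser, gave 159.7, 195 and 159 in Tg mice, against 392.2, 258 and 282 in wt mice (log2 fold change -0.79). Satb1, a chromatin organiser, had a log2 fold change of -0.61 (limma adjusted p = 0.174) and Nr4a2, a nuclear receptor of the subiculum, one of -0.09. Of the 12 subiculum and retrohippocampal markers, 4 had every Tg array below every wt array (6.67% of all kept probesets). These were Tshz2, Nts, Satb1 and Cbln1. The 2 higher markers, Rorb and Ndst4, each at a log2 fold change of 0.42, had every Tg array above every wt array (8.58% of all kept probesets). At an unadjusted limma p under 0.05, 4 of the 12 were lower and 1 higher, against 3.78% and 5.91% of all kept probesets.

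The brightest thalamus markers, Zic1 and Calb2, were set beside the Slc17a6 signal of Tg 2 after their values were seen. Zic1, a transcription factor of thalamic and septal neurons, gave 706.5, 1596.5 and 827.5 in Tg mice, against 2197, 1819 and 1170.5 in wt mice, and its log2 fold change was -0.76 (limma adjusted p = 0.397). Calb2, which encodes calretinin, gave 593, 1631 and 838.5 in Tg mice, against 1139, 1449 and 1003 in wt mice, and its log2 fold change was -0.34. Tg 2 was the highest Tg array for both genes, as it was for both Slc17a6 probesets, Nts and Cbln1. Of the other subiculum and retrohippocampal markers, Tg 2 was the highest Tg array for Ndst4 and Nos1. Tg 3 was the highest for Fn1, Tshz2, Satb1, Cntn6, Teddm3, Rorb, Ntng1 and Nr4a2. Over all 10 thalamus markers Tg 2 was the highest Tg array for 3 and the lowest for 4, and Calb2 is also among the GABAergic interneuron markers. The part of dissected region in the Slc17a6 values was not tested.

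**Figure D4:**
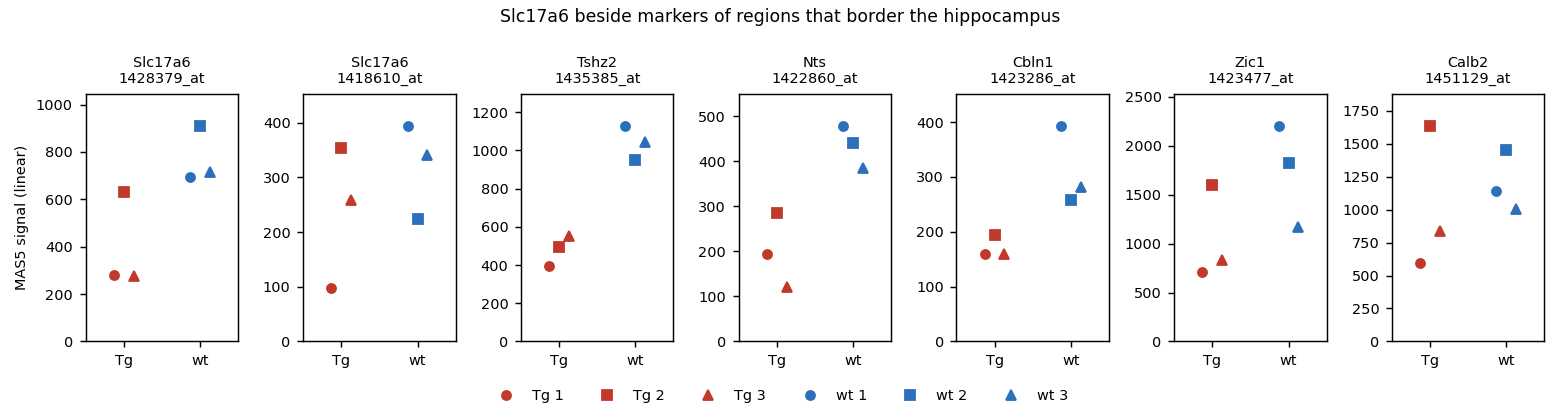
Signal of the Slc17a6 probesets and of Tshz2, Nts, Cbln1, Zic1 and Calb2 on each array, with Tg arrays on the left and wt arrays on the right. Tg 2 is the highest Tg array in every panel except that of Tshz2, where Tg 3 is.

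Slc17a7 encodes VGLUT1, the vesicular transporter of the pyramidal and granule cells of the hippocampus. Its probeset, 1428986_at, gave 7000.5, 5665 and 5938 in Tg mice, against 5957, 7009 and 6195 in wt mice. The groups overlapped, and the means of 6201 ± 706 in Tg and 6387 ± 551 in wt hippocampi (SD, n = 3 each) gave a log2 fold change of -0.05 (95% interval -0.26 to 0.17, limma adjusted p = 0.908). Markers of dentate granule cells, all 13 measured, were higher in Tg hippocampi with a median of 0.45, and 9 of 11 markers of CA field pyramidal cells were higher with a median of 0.25. No gene of either list was called by limma, and Cyber-T called 2 of the dentate list, Dsp and Lct, against 0.209% of all kept probesets. Slc17a7, which both cell types make, had no call in either test. At an unadjusted limma p under 0.05, 6 dentate and 3 CA field markers were higher (5.91% of all kept probesets). At that limit 1 CA field marker was lower (3.78%). Every Tg array lay above every wt array for 7 dentate and 4 CA field markers (8.58% of all kept probesets). The 2 brightest dentate markers, C1ql3 and Calb1, had log2 fold changes of 0.20 and 0.21. Those of the CA field, Wfs1 and Ociad2, had -0.29 and -0.002 and were the 2 lower markers of that list.

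The genes that make and recycle glutamate were read as a group. Of 17 measured genes of the glutamate-glutamine cycle, 5 were higher and 12 lower in Tg hippocampi with a median of -0.13, none was called by limma or by Cyber-T, and 3 were lower at an unadjusted p under 0.05, against 3.78% of all kept probesets, namely Got2 (mitochondrial aspartate aminotransferase), Slc3a2 (the heavy chain of an amino acid exchanger) and Gad2 (a glutamate decarboxylase), which were named after their values were seen. With arrays centred 1 was higher, without wt 1 there were 2 and without wt 3 there were 3. Glul, the glutamine synthetase of astrocytes, gave 19233, 19231 and 16905 in Tg mice, against 15313, 19924 and 18295 in wt mice (log2 fold change 0.05, limma adjusted p = 0.886). Slc38a3, which carries glutamine out of astrocytes, gave 951, 1221 and 776 in Tg mice, against 821, 1006 and 1003 in wt mice (log2 fold change 0.04, limma adjusted p = 0.954). The groups overlapped for both, and for Gad1, the other glutamate decarboxylase, with a log2 fold change of -0.13.

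Of 9 proteins that bind or regulate the transporters, 5 were higher and 4 lower with a median of 0.05 (-0.02 with arrays centred). In this list 3 genes, named after their values were seen as Arhgef11, Pick1 and Gja1, had every Tg array below every wt array and 1, Dlg4, had every Tg array above (6.67% and 8.58% of all kept probesets). Its brightest genes were Gja1, the astrocytic connexin, at -0.15 and Sh3gl2, an endophilin, at -0.06. Dlg4, which encodes the postsynaptic scaffold PSD-95, was the 1 that passed an unadjusted p of 0.05 and is named for that reason. It gave 2314, 1654 and 2537 in Tg mice, against 1554, 943 and 1502 in wt mice, with a log2 fold change of 0.71 (limma adjusted p = 0.260). Both measured vesicular transporters of other transmitters were lower, Slc32a1, which loads GABA and glycine, at a log2 fold change of -0.36 (limma adjusted p = 0.427) and Slc18a2, which loads monoamines, at -0.07. Among 12 GABAergic interneuron markers, a list that holds Slc32a1 too, 11 were lower with a median of -0.34, none was called by limma and Cyber-T called 1, Sst, which encodes somatostatin, against 0.209% of all kept probesets. In that list 5 were lower at an unadjusted p under 0.05 (3.78% of all kept probesets) and 4 had every Tg array below every wt array (6.67%). The 1 higher was Cck, which encodes cholecystokinin, and without wt 2 there were 2.

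Of the other SLC1 and SLC17 family genes, 3 of 8 were measured, of which 2 were higher and 1 lower in Tg hippocampi, and none was called by limma or by Cyber-T. Slc17a5, which carries sialic acid out of lysosomes, gave 583, 452 and 560.5 in Tg mice, against 655, 613 and 622 in wt mice, with no overlap (log2 fold change -0.25, limma adjusted p = 0.618). Slc17a9, which loads ATP into vesicles, and Slc1a5, a glutamine exchanger, were dim and overlapped. Without wt 2 or without wt 3 the number higher was 1. Of the remaining cells of the tissue, 3 of 7 oligodendrocyte markers were higher with a median of -0.07 (Mbp 0.10, Cnp -0.20) and 3 of 8 microglia markers were higher with a median of -0.12 (Csf1r -0.18, C1qa -0.07), with no call in limma or in Cyber-T. Without Tg 3 the number of oligodendrocyte markers higher was 6, and without wt 3 it was 1; that of microglia markers was 1 without Tg 1.

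For Slc1a2, Slc1a3, Slc17a6 and Slc17a7, the genes whose signal ran most alike over the 6 arrays were taken from 13853 genes, by Pearson's r of the log2 levels. With 6 arrays, values this close to 1 are found by choosing the highest of so many, and they are given as a description. Slc1a2 ran most like Dsel (r = 0.994, Spearman's rho = 0.943), Slc1a3 like Plk3 (r = 0.993, rho = 0.943), Slc17a6 like Svip (r = 0.993, rho = 1) and Slc17a7 like Akap2 (r = 0.994, rho = 0.943). The next were Ccdc88c and Rps9 for Slc1a2, Emc8 and Fam13c for Slc1a3, Lxn and Abhd14a for Slc17a6, and Mllt11 and Psmd12 for Slc17a7, with r between 0.984 and 0.992. None of these genes was itself a glutamate transporter.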

How the data were processed

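Total RNA of dissected hippocampi (RNeasy) was labelled by the one-cycle method and hybridised to Affymetrix Mouse Genome 430 2.0 arrays. The deposited intensities are MAS5 signals on a linear scale, made and scaled by the authors. Per the paper 3 Tg and 3 wt mice were used, so each of the 6 arrays was taken as a separate mouse. The labels only number the arrays within each group. The study itself worked from RMA values, with SAM and Cyber-T. Those values were not analysed here, and SAM was not run.

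Of 45101 probesets, 64 controls were removed. Gene names came from the platform annotation, which gave 34945 probesets 1 gene, 932 several and 9160 none. Signals were taken as log2(signal + 16), so fold changes of low signals are understated. The 31% of probesets with the lowest mean log level were left out (lowest mean signal kept 48.75), and 31076 remained. Tg minus wt was fitted with limma 3.58.1 (R 4.3.3, intensity trend) with Benjamini-Hochberg adjustment over all kept probesets. Cyber-T was run with a 101-probeset window and confidence 10. The brightest-minus-dimmer difference was tested with a 2-sided exact permutation test in Python 3.11.15. The limma and Cyber-T steps were tested on simulated data.

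All transporter probesets are named. Of the related lists, which leave out the transporters and take each gene at its brightest kept probeset, the genes named are those called or, without a call, the 2 brightest, with Glul, Slc38a3, Glud1, the 3 most alike in pattern and markers needed beside a transporter; a gene named for its values is given as such. The transporters and the lists were chosen with earlier results of these data known. Replicate numbers are not stated to pair the mice and were not used as pairs in the main fit. Deviations from the group means correlated at -0.0159, 0.00779 and 0.0333 over the same-numbered pairs, which does not exclude pairing. With the number as a block, Slc17a6 1428379_at had an SE of 0.186 and a limma adjusted p of 0.119. Alternatives were other added constants, quantile normalization, median centring, other filters, no trend, array weights, a replicate block, and leaving out each array.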

Additional observations from a re-analysis of the deposited data

How the results depend on the processing

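The count of transporter probesets called was 0 in limma and in Cyber-T, and 3 at the study's fold and unadjusted p limits without its false discovery rate limit. It ran between 0 and 1 when each array was left out, the 1 being Slc17a6 without Tg 2. Over all kept probesets the count was 0, against 65 in Cyber-T, 2148 at those fold and p limits and 0 to 6 when each array was left out, with 6 without Tg 2, 1 without wt 1 and 1 without wt 3. With the replicate number as a block it was 1, and no transporter was called under the block. Of 339 transporter fold changes under the alternatives, 313 kept their direction and side of the threshold and 25 reversed, all at probesets whose 95% interval held 0. Reversals apart from leaving out 1 array were, for Slc1a4 1423550_at, -0.043 (quantile), -0.064 (centred), -0.034 (array weights) and -0.19 (without both wt 1 and wt 2, chosen after seeing the data); for Slc1a2, 0.034 at 1438194_at (quantile) and 0.019 at 1451627_a_at (array weights); and without both wt 1 and wt 2, 0.074 for Slc1a6 and -0.069 for Slc1a3 1443749_x_at. Leaving out 1 array gave -0.23 to 0.096 for Slc1a6, -0.14 to 0.024 for Slc17a7, -0.26 to 0.013, -0.071 to 0.097 and -0.22 to 0.032 for Slc1a4 1423549_at, 1423550_at and 1456003_a_at, -0.21 to 0.0035, -0.0065 to 0.18 and -0.042 to 0.19 for Slc1a3 1426340_at, 1426341_at and 1443749_x_at, -0.94 to 0.010, -0.074 to 0.0037 and -0.23 to 0.15 for Slc1a2 1433094_at, 1438194_at and 1451627_a_at, and -0.17 to 0.041 for the brightest minus dimmer probesets of Slc1a4. As a mean of all kept probesets in place of the brightest, Slc1a1 gave 0.25, Slc1a2 0.13 and Slc1a3 -0.10. The brightest minus dimmest probeset of Slc1a2 gave 0.37. Of 130 counts of listed genes, 28 moved by over 1.5 times. The cause of these changes was not tested.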
